A study of Mus musculus with 8 samples.

Results

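The 10 genes described here encode proteins of the Z-disc whose use differs between fast and slow muscle fibres, or that serve as common partners of those that differ: Actn2, Actn3, Myoz1, Myoz2, Myoz3, Csrp3, Ankrd2, Fhl1, Ldb3 and Des. They were chosen by name, through probe sets to which the platform annotation gives exactly 1 symbol, and all 10 were found among the 19938 genes measured, each with 1 probe set. Whole-tissue RNA from gastrocnemius, a calf muscle in which fast fibres prevail over slow ones, was hybridised to 8 Affymetrix gene arrays. There were 4 samples from HDAC5 knockout mice (KO, written HADAC5 KO in the labels) and 4 from wild type littermates (HDAC5 WT), all 30 weeks old, on low-fat chow and without further treatment. HDAC5 belongs to the class IIa histone deacetylases, binds MEF2 transcription factors and can repress their target genes in muscle. The labels state neither the sex of the animals nor which part of the gene was deleted, nor whether each sample came from its own animal, so the p-values speak of the spread among 8 samples that may be partly technical.

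The Z-disc is the border of the sarcomere, the contractile unit of a muscle fibre. Thin filaments from neighbouring sarcomeres end there and are tied together by alpha-actinins. Other proteins of the Z-disc join the actinins to signalling enzymes, sense stretch, or link the disc to its neighbours and to the cell membrane. Their make-up follows the fibre type: alpha-actinin 3 is restricted to fast fibres, myozenin 1 and myozenin 3 are mainly fast fibre proteins, and myozenin 2, Csrp3 and Ankrd2 are found mainly in slow fibres or heart.

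The sequences just upstream of the starts of Myoz2, Ankrd2 and Csrp3 are shown because these members had the largest differences between the genotypes. Each is the 250 bases before the transcription start, from RefSeq on GRCm38.p6, on the gene's own strand: chr3:123034988-123035237 (minus strand) for Myoz2, chr19:42035777-42036026 (plus strand) for Ankrd2 and chr7:48848052-48848301 (minus strand) for the more upstream of 2 starts of Csrp3. Capitals mark matches to 5 motifs searched on both strands: the MEF2 site, the CArG box bound by serum response factor, the E-box CAGCTG bound by myogenic factors, the MCAT element CATTCC, and the core promoter element TATAAA.
Myoz2: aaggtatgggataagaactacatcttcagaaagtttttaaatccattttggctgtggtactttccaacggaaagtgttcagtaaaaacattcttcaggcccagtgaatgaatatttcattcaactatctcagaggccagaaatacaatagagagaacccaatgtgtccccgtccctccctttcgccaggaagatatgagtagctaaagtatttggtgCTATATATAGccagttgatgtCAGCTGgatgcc
Ankrd2: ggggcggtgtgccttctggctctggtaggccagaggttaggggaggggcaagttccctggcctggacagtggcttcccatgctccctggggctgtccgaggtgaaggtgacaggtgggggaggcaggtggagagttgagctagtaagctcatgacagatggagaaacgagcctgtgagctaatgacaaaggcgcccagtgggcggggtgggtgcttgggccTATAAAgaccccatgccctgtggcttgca
Csrp3: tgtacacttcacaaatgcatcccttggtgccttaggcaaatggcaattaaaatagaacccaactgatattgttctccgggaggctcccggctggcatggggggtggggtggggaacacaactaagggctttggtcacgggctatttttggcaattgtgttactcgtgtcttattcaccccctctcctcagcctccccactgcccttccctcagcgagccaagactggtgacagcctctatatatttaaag

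The Myoz2 window holds a match to the MEF2 site, CTATATATAG, from position -33 to -24 relative to the start, and an E-box from -12 to -7. Of all 32851 promoter windows of this length, 2.92% hold a MEF2 match and 13% hold CAGCTG. The Ankrd2 window holds TATAAA from -29 to -24, which 12.4% of all windows hold, and none of the other 4 motifs. The Csrp3 window holds none of the 5, which says only that these letters are not in this window. These matches are descriptions of the letters and not measured binding.

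The arrays themselves were alike. The deposited values are log2 signals, with array medians of 7.69 to 7.77, and arrays correlated at 0.988 to 0.995. Hdac5, the targeted gene, lay between 8.31 and 8.39 in KO samples and between 9.76 and 9.94 in WT samples. The skeletal muscle markers Acta1, Ckm, Myh4, Myh1 and Ttn lay between the 99.8th and the 100th percentile of gene signals, while the heart markers Myh6, Nppa, Tnni3 and Myl7 lay between the 29.9th and the 67.8th. In limma, 13 of 19938 genes passed an adjusted p of 0.05 (0.0652%), 8 higher and 5 lower in KO. Hdac5 itself is 1 of these 5, at a difference of -1.50 (limma adjusted p = 1.7e-07). Were a slow fibre gene lower, fewer slow fibres and less transcript per fibre could not be told apart in whole-tissue RNA.

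None of the 10 Z-disc genes passed that threshold. The smallest adjusted p among them was 0.387, for Myoz2 (limma). At an unadjusted p under 0.05 there were 3 members, against 7.90% of all genes. Myoz2 and Ankrd2 were on the lower side in KO, as were 3.18% of all genes, and Csrp3 was on the higher side, as were 4.72%. The median difference of all 10 members, KO minus WT, was -0.03 on the log2 scale, beside 0.0030 for all genes. Of the 10, 7 had a lower mean in KO, as did 48.6% of all genes. The 3 members with the largest differences were the 3 slow-biased ones, and they did not go the same way: Ankrd2 and Myoz2 had lower means in KO, and Csrp3 had a higher mean.

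**Figure D1:**
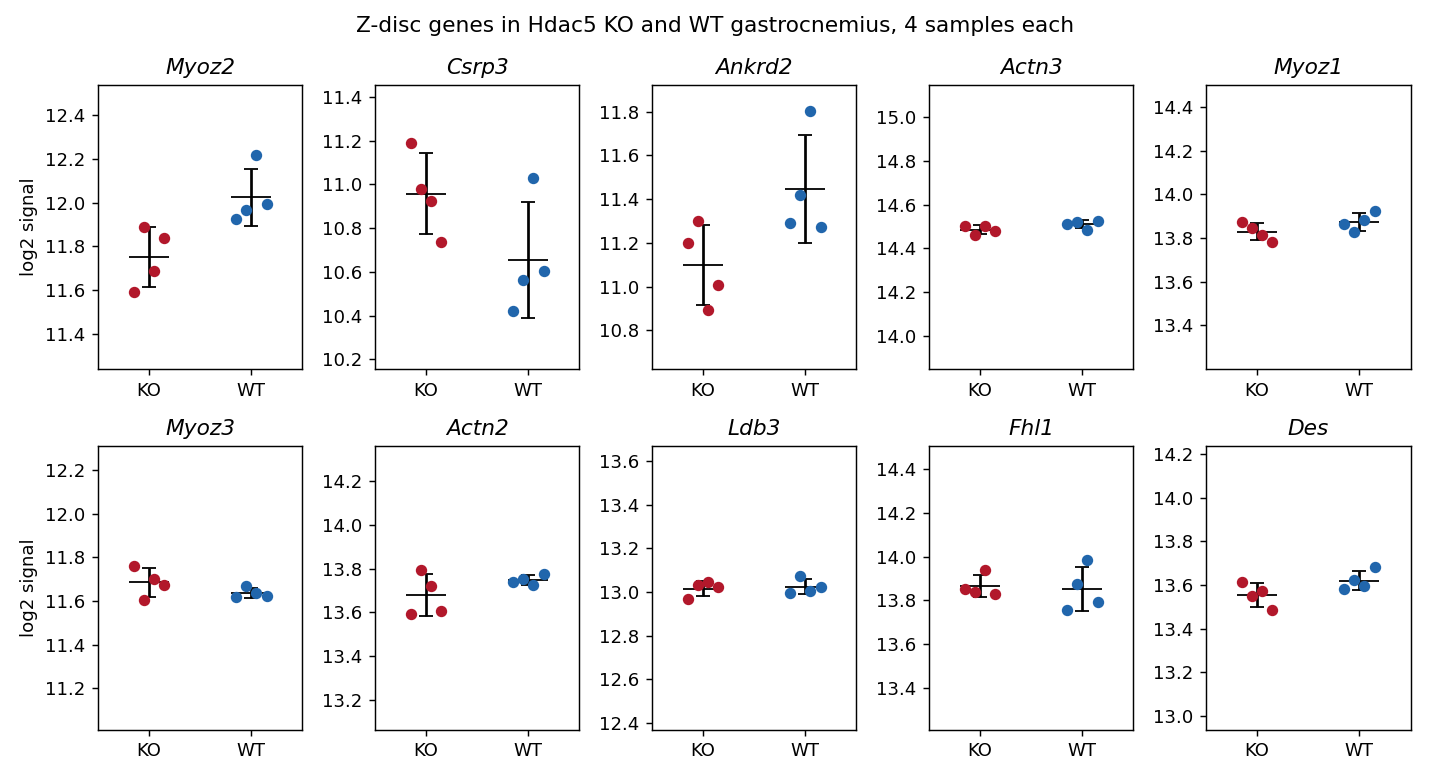
Log2 signal of the 10 Z-disc genes in each KO sample (red, left) and WT sample (blue, right), with group means and SD (n = 4 each), all panels spanning the same log2 range. Myoz2 samples of the genotypes do not overlap, Csrp3 and Ankrd2 samples spread widely and overlap, and the remaining genes lie close together.

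Myoz2 encodes myozenin 2, also called calsarcin 1, which binds alpha-actinin and the phosphatase calcineurin at the Z-disc of slow and cardiac muscle. Its log2 signal was 11.59, 11.89, 11.69 and 11.84 in KO samples 1 to 4 and 11.93, 11.96, 12.22 and 11.99 in WT samples 1 to 4. Every KO sample lay below every WT sample, although KO sample 2 and WT sample 1 were separated by little. That held for 4.90% of all genes in either direction, and for 1.99% with KO as the lower group. The group levels were 11.75 ± 0.14 in KO and 12.02 ± 0.13 in WT (SD, n = 4 each), a difference of -0.27 (SE 0.084, 95% interval -0.46 to -0.09), or 0.828 of the WT signal. The exact two-sided permutation p was 0.0286, which is the lowest value possible with 4 samples per genotype, while the limma p adjusted over all genes was 0.387.

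Ankrd2 encodes an ankyrin repeat protein of slow fibres that responds to stretch and can pass between the sarcomere and the nucleus. Its log2 signal was 11.20, 11.30, 10.89 and 11.01 in KO samples 1 to 4 and 11.29, 11.42, 11.81 and 11.27 in WT samples 1 to 4. KO sample 2 lay above WT samples 1 and 4, so the genotypes overlapped, and WT sample 3 stood highest. The means were 11.10 ± 0.18 in KO and 11.45 ± 0.25 in WT (SD, n = 4 each), a difference of -0.35 (SE 0.120, 95% interval -0.61 to -0.09). The exact permutation p was 0.0857 and the limma adjusted p 0.461. Without WT sample 3 the difference was -0.23 (limma adjusted p = 0.638).

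Csrp3 encodes muscle LIM protein, a partner of alpha-actinin in slow fibres and heart that also acts as a cofactor of myogenic transcription factors. Its log2 signal was 11.19, 10.98, 10.92 and 10.74 in KO samples 1 to 4 and 10.42, 10.56, 11.03 and 10.61 in WT samples 1 to 4. WT sample 3 lay above 3 of the KO samples, and the other 3 WT samples lay below all 4 KO samples. The means were 10.96 ± 0.19 in KO and 10.65 ± 0.26 in WT (SD, n = 4 each), a difference of 0.30 (SE 0.125, 95% interval 0.03 to 0.58), or 1.23 times the WT signal. The exact permutation p was 0.114 and the limma adjusted p 0.566. Without WT sample 3 the difference was 0.43 (limma adjusted p = 0.288). Without KO sample 1 it was 0.225 and without WT sample 1 it was 0.224 (limma unadjusted p = 0.104 and 0.105). The unadjusted p also rose above 0.05 when KO sample 2, KO sample 3, WT sample 2 or WT sample 4 was left out.

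WT sample 3 had the highest signal of its genotype for each of these 3 genes. It was also the WT sample with the lowest level of the adipocyte markers Adipoq, Plin1, Cidec, Lep and Retn. Their mean log2 signal was 7.51 in that sample and 9.68 in WT sample 2. It was 8.70 in WT sample 1, 8.57 in WT sample 4 and 8.41 to 8.84 in the 4 KO samples. WT samples 2 and 3 were also left out together, a choice made after seeing the data that kept only WT samples 1 and 4. The differences were then -0.21 for Myoz2, -0.18 for Ankrd2 and 0.44 for Csrp3 (limma adjusted p = 0.723, 0.785 and 0.404). With only WT sample 3 left out they were -0.21, -0.23 and 0.43. Since WT sample 3 held the highest WT values of these genes, leaving it out cannot separate fat from those values. The part of fat tissue in these values was not tested.

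Taking Csrp3 and Ankrd2 together within each array restates their differences sample by sample. The log2 signal of Csrp3 minus that of Ankrd2 was -0.01, -0.32, 0.03 and -0.27 in KO samples 1 to 4 and -0.87, -0.86, -0.77 and -0.67 in WT samples 1 to 4. KO sample 2 and WT sample 4 were the nearest samples of the genotypes, and WT sample 3, which stood high for both genes, lay among the other WT samples on this measure. The mean was -0.14 ± 0.18 in KO and -0.79 ± 0.09 in WT (SD, n = 4 each), a difference of 0.65, which is the sum of the sizes of the 2 single differences and no further support for them. Probe sets differ in brightness, so only the change of this measure between genotypes can be read, and no test is attached to it because the genes were chosen with their values known.

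**Figure D2:**
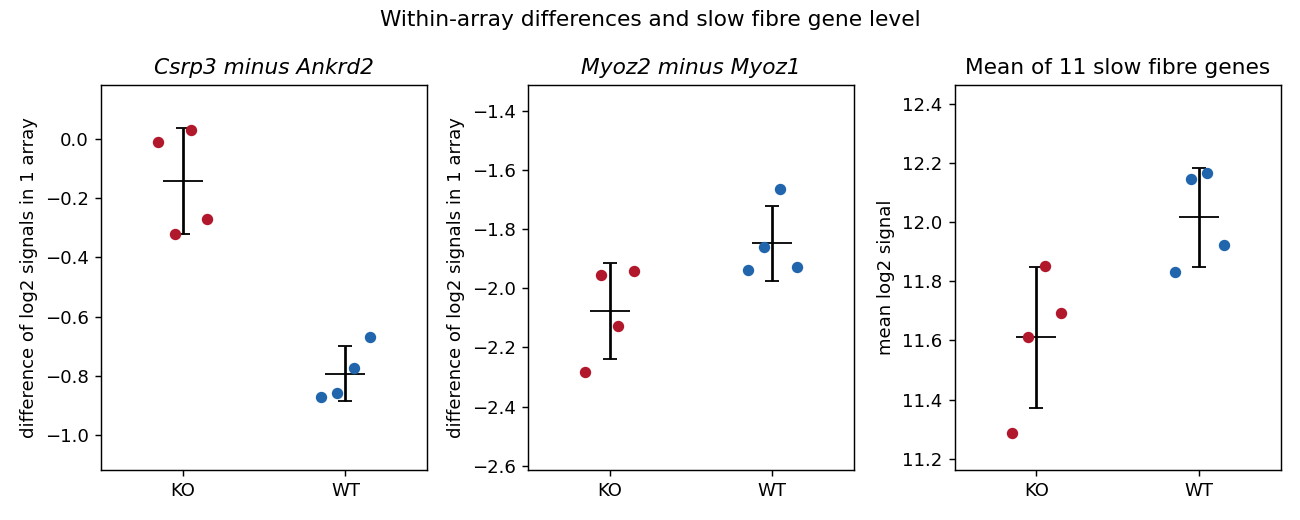
Difference of log2 signals within each array for Csrp3 minus Ankrd2 and for Myoz2 minus Myoz1, in KO (red, left) and WT (blue, right), with means and SD (n = 4 each). The third panel gives the mean log2 signal of the 11 genes on the slow fibre list, Myh2 and Mb included. The Csrp3 minus Ankrd2 group means are 0.65 apart, while the Myoz2 minus Myoz1 groups nearly touch and the slow fibre means of KO sample 3 and WT sample 1 cross.

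The fast-biased members differed little. Actn3, the fast fibre alpha-actinin, was at 14.50, 14.46, 14.50 and 14.48 in KO samples 1 to 4 and at 14.51, 14.52, 14.48 and 14.53 in WT samples 1 to 4. WT sample 3 lay within the KO range, and the difference was -0.02 (SE 0.050, 95% interval -0.13 to 0.09, exact permutation p = 0.143). Myoz1, the fast fibre myozenin that also binds calcineurin, was at 13.87, 13.85, 13.81 and 13.78 in KO samples 1 to 4 and at 13.86, 13.83, 13.88 and 13.92 in WT samples 1 to 4. These groups overlapped too, with a difference of -0.05 (SE 0.053, 95% interval -0.16 to 0.07, exact permutation p = 0.171).

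Myoz3, the third myozenin and likewise a calcineurin binder, was at 11.76, 11.60, 11.70 and 11.67 in KO samples 1 to 4 and at 11.62, 11.67, 11.64 and 11.62 in WT samples 1 to 4. KO sample 2 lay below all WT samples and the other 3 KO samples above all of them. The difference was 0.05 (SE 0.055, 95% interval -0.07 to 0.17, exact permutation p = 0.229). Limma adjusted p-values were 0.940 for Actn3, 0.885 for Myoz1 and 0.878 for Myoz3.

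Actn3 and Myoz1 are among the brightest genes on the arrays, at the 99.98th and 99.8th percentiles of mean signal. The array maxima were 14.80 to 14.84, and whether a change would be compressed that close to the top of the scale was not tested. The myozenins could be set against each other within an array. Myoz2 minus Myoz1 was -2.28, -1.96, -2.13 and -1.94 in KO samples 1 to 4 and -1.94, -1.86, -1.67 and -1.93 in WT samples 1 to 4. KO sample 4 and WT sample 1 almost coincided, and the mean was lower in KO by a difference of -0.23. Myoz3 minus Myoz1 overlapped between genotypes, with a difference of 0.09.

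The members without a single fibre bias had differences of 0.07 or less in size. They lay between the 99th and the 99.8th percentiles of mean signal, so the limit given for Actn3 and Myoz1 holds for them too. Actn2, the alpha-actinin of all skeletal fibres and heart, was at 13.59, 13.79, 13.72 and 13.61 in KO samples 1 to 4 and at 13.74, 13.75, 13.72 and 13.77 in WT samples 1 to 4. Its KO samples spread over 0.203, enclosing the WT samples, which spread over 0.049. The difference was -0.07 (SE 0.061, 95% interval -0.20 to 0.06), and within arrays Actn2 minus Actn3 differed by -0.05 with overlapping groups.

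Des encodes desmin, the intermediate filament that ties neighbouring Z-discs together. It was at 13.61, 13.55, 13.57 and 13.48 in KO samples 1 to 4 and at 13.58, 13.62, 13.59 and 13.68 in WT samples 1 to 4, with a difference of -0.06 (SE 0.056, 95% interval -0.19 to 0.06). KO sample 1 lay inside the WT range and the other 3 KO samples lay below it. Ldb3, known as ZASP or Cypher, a PDZ and LIM protein that binds alpha-actinin, had KO samples from 12.97 to 13.04 and WT samples from 13.00 to 13.07, with a difference of -0.0090 (SE 0.052, 95% interval -0.12 to 0.11).

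Fhl1, a LIM-only protein of the sarcomere linked to muscle growth, had KO samples from 13.83 to 13.94 and WT samples from 13.75 to 13.99. The KO range lay wholly within the WT range. The difference was 0.01 (SE 0.064, 95% interval -0.13 to 0.15). The signs of the Ldb3 and Fhl1 differences turned when single samples were left out, so neither has a direction. For these 4 genes limma adjusted p-values were between 0.837 and 0.979.

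**Figure D3:**
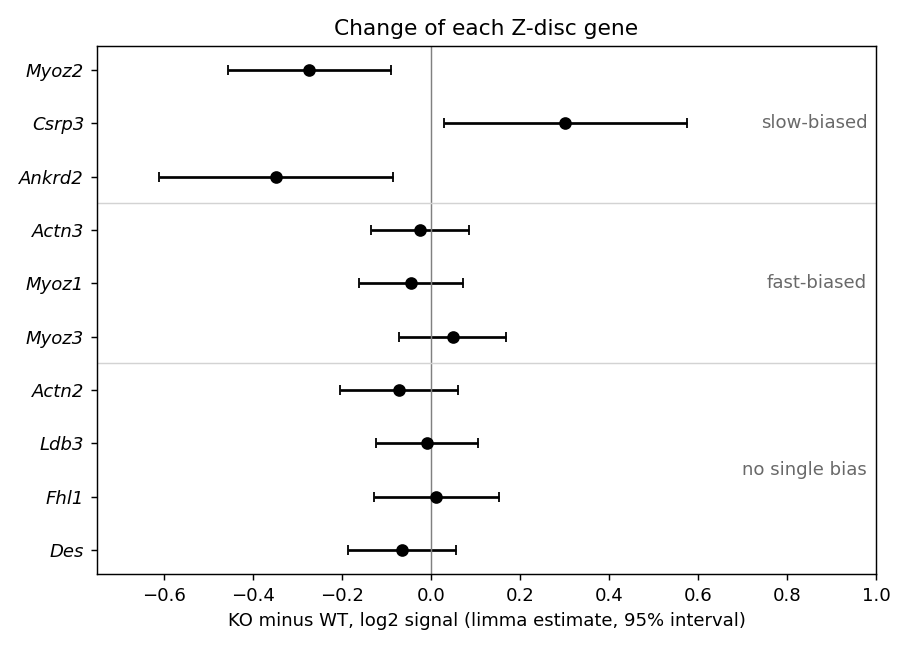
KO minus WT difference in log2 signal for each of the 10 genes (point) with its 95% interval from limma (bar), grouped by fibre bias. The intervals of Myoz2, Csrp3 and Ankrd2 leave out 0 before adjustment over all genes, with Csrp3 on the positive side, and the other 7 intervals hold 0.

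The members also differed in how much samples of 1 genotype varied. The pooled SD within genotype was 0.228 for Csrp3 and 0.218 for Ankrd2, at the 97.3rd and 96.8th percentiles of all genes, and 0.134 for Myoz2, at the 75th. It was 0.0193 for Actn3, 0.0395 for Myoz1 and 0.0489 for Myoz3, at the 0.0802nd, 2.38th and 5.77th percentiles. A low spread was not confined to these fast-biased members. Ldb3 was at 0.0344 and Des at 0.05, at the 1.35th and 6.35th percentiles. Actn2 was at 0.0696 and Fhl1 at 0.0808, at the 19.5th and 29.9th. These SDs are a description without a test. Actn3, Myoz1 and the 4 members without a single fibre bias lie at or above the 99th percentile of mean signal, where a compressed spread was not tested for.

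Other fibre type genes are given for comparison. A list of 11 genes was written for slow fibre myofilament and calcium proteins. Among the 11 are Myh2, the fast type IIa myosin heavy chain, and Mb, myoglobin, with differences of -0.05 and -0.04. None of the 11 passed over all genes in limma (smallest adjusted p = 0.0763), and the median difference was -0.54. At an unadjusted p under 0.05, 8 were lower and 1 was higher, against 3.18% and 4.72% of all genes. Tnnc1, the slow troponin C, differed by -0.76 and Myl3, a slow myosin light chain, by -0.61. Tnni1, the slow troponin I, and Myh7, the slow myosin heavy chain, lay at differences of -0.71 and -0.76. In 6 of the 11 genes, these 4 with Atp2a2 and Tpm3, every KO sample lay below every WT sample, as in 1.99% of all genes. Casq2, the calsequestrin of slow fibres and heart, had a higher mean in KO by 0.35 (limma adjusted p = 0.457), the same direction as Csrp3. This list was written with the lower slow fibre genes of these data already known, so its direction is no independent evidence.

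The mean log2 signal of those 11 genes was 11.29, 11.61, 11.85 and 11.69 in KO samples 1 to 4 and 11.83, 12.14, 12.17 and 11.92 in WT samples 1 to 4. KO sample 1 was lowest both on this mean and for Myoz2, and WT sample 3 was highest on both. KO sample 3 had the highest slow fibre mean of its genotype but the second lowest Myoz2 signal, so the order of samples was not shared throughout. Of 10 fast fibre genes, none had an unadjusted p under 0.05 in limma, and their differences lay between -0.05 and -0.01. All 10 lay between the 99.8th and the 100th percentile of gene signals, close to the array maxima, so the limit given for Actn3 and Myoz1 holds for them too. In Tnni2 and Tnnt3 every KO sample lay below every WT sample, as in 1.99% of all genes. Casq1, the fast calsequestrin, and Tnni2, the fast troponin I, were at -0.05 each, Tnnt3, the fast troponin T, at -0.03 and Tnnc2, the fast troponin C, at -0.03.

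Other genes of the Z-disc had differences centred near 0. Of 48 other Z-disc and Z-disc linked genes, none passed over all genes in limma. The median difference was -0.0097, with 25 lower and 23 higher. At an unadjusted p under 0.05, 1 was lower and 3 were higher, against 3.18% and 4.72% of all genes. Capza1, a subunit of the protein that caps thin filaments in the Z-disc, had the smallest p. It was at 11.14 in KO and 10.89 in WT, a difference of 0.24 (SE 0.068, adjusted p = 0.313 in limma), with every KO sample above every WT sample. Sorbs2, an adaptor protein, differed by 0.18, Palld, the actin-binding protein palladin, by 0.16 and Dnajb6, a co-chaperone found at the Z-disc, by -0.20, each with overlapping samples. Ppp3r1, a calcineurin subunit, also had every KO sample above every WT sample, at a difference of 0.105. Other listed subunits of the capping protein and of calcineurin overlapped between genotypes. Capza2 differed by 0.06 and Capzb by -0.099, Ppp3ca by -0.06 and Ppp3cb by 0.035. Tcap had every KO sample below every WT sample, at -0.11. Samples of the genotypes did not overlap in 4.90% of all genes, in either direction.

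The M-band, the anchor of thick filaments at the middle of the sarcomere, was read for comparison. Of 6 genes, none passed and 1 had an unadjusted p under 0.05 in limma, against 7.90% of all genes. The gene was Lrrc39, a myosin-binding protein of the M-band, at a difference of 0.22 (limma adjusted p = 0.378). Myom2, the myomesin of fast fibres, differed by 0.08, Myom3, the myomesin of slow and intermediate fibres, by -0.11, and Obsl1, a partner of titin and myomesin, by 0.04.

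Ankrd2 is part of a family of stretch-responsive proteins. Ankrd1 and Ankrd23, the other two ankyrin repeat proteins of this family, differed by 0.06 and -0.08, and Xirp1, an actin-binding repeat protein, by 0.12. Myh8, the perinatal myosin, differed by 0.06. None of the 6 genes on the stretch list had an unadjusted p under 0.05 in limma.

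**Figure D4:**
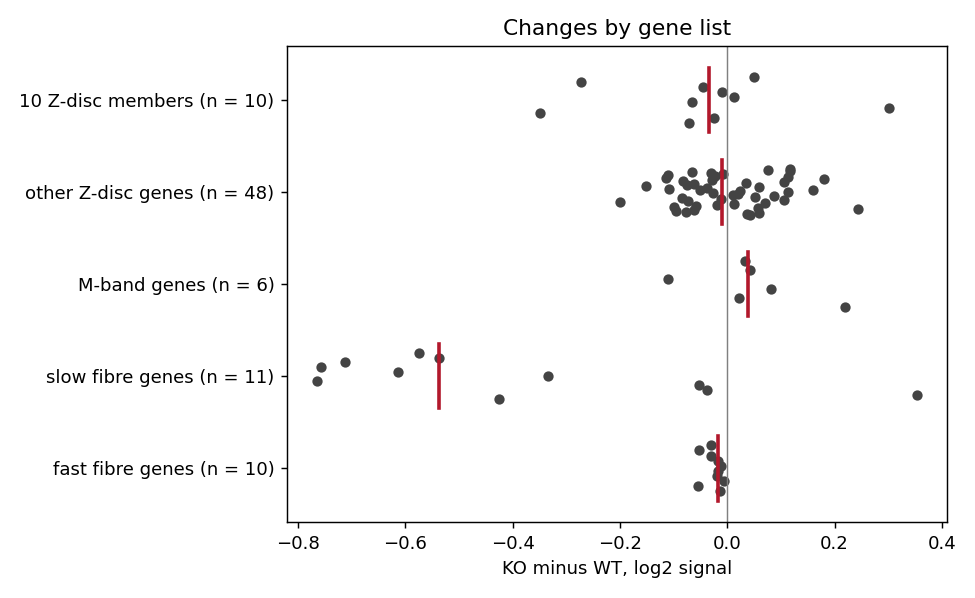
KO minus WT difference in log2 signal for every gene (points) of 5 lists, with each list's median (red line). The slow fibre list, Myh2 and Mb included, spreads to the left with a median of -0.54. The medians of the 10 Z-disc genes and of the other lists lie near 0.

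Markers of other cells were read beside these values. The mean log2 signal of 8 macrophage markers ran from 8.62 to 9.00 in KO and from 8.31 to 8.72 in WT, with 8 of 8 genes higher in KO. Of these, 6 had an unadjusted p under 0.05 in limma, against 4.72% of all genes on the higher side. The mean of 6 fibroblast markers ran from 10.69 to 11.05 in KO and from 10.59 to 10.87 in WT. All 6 were higher, 3 of them at an unadjusted p under 0.05 in limma. The mean of 5 tendon markers ran from 9.33 to 9.74 in KO and from 9.58 to 9.97 in WT. All 5 were lower, 3 of them at an unadjusted p under 0.05 in limma, against 3.18% of all genes on the lower side. The 3 Schwann cell markers measured had lower means in KO, 1 of them at an unadjusted p under 0.05 in limma, with a median difference of -0.21. The 4 endothelial markers differed by -0.06 to -0.0048. Of 5 smooth muscle and pericyte markers 4 had higher means, 2 of them at an unadjusted p under 0.05 in limma. Acta2, the smooth muscle actin, differed by 0.46 with every KO sample above every WT sample (limma adjusted p = 0.176). Samples of the genotypes did not overlap in 4.90% of all genes, in either direction. Of 3 satellite cell markers 2 were lower. In 1 of them, Myf5, every KO sample lay below every WT sample, at -0.12 (unadjusted p = 0.0434 in limma). Of 5 adipocyte markers 3 were lower. The genotypes overlapped on the macrophage, fibroblast and tendon means, and their part in the Z-disc values was not tested.

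The genes whose signals most resembled these members over the 8 arrays were sought among 9959 genes brighter than the median gene, by Pearson's r. For Myoz2 they were Aak1, Cspg4 and Mrpl48, with r between 0.960 and 0.970. For Ankrd2 they were Tmem87a, Lage3 and Uqcc3, with r between 0.946 and 0.966. For Csrp3 they were Pnpt1, Ccdc141 and Aasdhppt, with r between 0.955 and 0.963. Ccdc141 had a difference of 0.35 (limma adjusted p = 0.449), and no gene was among the nearest 3 of more than 1 of these members. The 8 arrays shared the genotype contrast and their processing, and values this high are the top of a search over many genes.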

How the data were processed

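The authors' deposited table holds 1 log2 signal per probe set and array for 35556 probe sets. Per the submitters' processing notes, it was made with Affymetrix Expression Console version 4.0. The methods of background correction, summarisation and normalization were not given in the sources used here. From the values, the scale is log2. Per the labels' protocols, 150 ng of total RNA with an integrity number above 8 was labelled per array. The number of arrays limits the precision.

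The values were not normalized again. Of the probe sets, 21789 had 1 symbol, 1621 several and 12146 were not listed. For the 999 genes with several probe sets, the brightest over the 8 arrays was used. KO minus WT was fitted with limma 3.58.1 (lmFit, eBayes) in R 4.3.3 over 19938 genes, adjusted by Benjamini-Hochberg, with SE as limma's moderated error. Single members were also compared by an exact two-sided permutation over 70 arrangements. The fit was tested on simulated data. Figures used matplotlib 3.10.9 in Python 3.11.15.

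All members were named. From the other lists, the 4 genes of smallest p were named, with Hdac5, Casq2 and 3 genes nearest each of Myoz2, Ankrd2 and Csrp3. Members, lists and markers were chosen with earlier results of these data known. Casq2, Acta2, Atp2a2, Tpm3, Myh2, Mb, Tcap, Ppp3r1, Ppp3ca, Ppp3cb, Capza2, Capzb and Myf5 were named after their values were seen. Alternatives covered normalization, variance model, array weights, dim genes, probe set choice, replicate block and left-out samples.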

Additional observations from a re-analysis of the deposited data

How the results depend on the processing

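In limma, 0 of the 10 Z-disc genes passed over all genes, and this held under each of the 17 alternatives run, with 3 members at an unadjusted p under 0.05 in the fit as reported. Myoz2, Ankrd2, Csrp3, Actn2, Actn3, Myoz1, Myoz3 and Des kept their direction in all 17. Differences of Myoz2 ran from -0.32 to -0.21, of Ankrd2 from -0.44 to -0.18 and of Csrp3 from 0.21 to 0.44, and the lowest adjusted p of any member was 0.195, for Myoz2 with a trended and robust eBayes. The Ldb3 sign turned with quantile normalization (0.020), with median centring (0.0060), without WT samples 2 and 3 (0.0052) and without KO sample 1 and WT sample 4, the ends of the first principal component (0.0069), the last pair chosen after seeing the data like the one before. With 1 sample left out, Ldb3 ran from -0.018 to 0.0074 and Fhl1 from -0.020 to 0.057, and Fhl1 was at -0.0037 without KO sample 1 and WT sample 4. The cause of these turns was not tested. The members' median ran from -0.049 to -0.011.

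The number of genes passing, 13 as reported, was 23 with quantile normalization, 44 with a trended and robust eBayes, 31 with array weights, 36 with dim genes left out (fewer genes tested), 5 to 20 with 1 sample left out, 5 without KO sample 1 and WT sample 4 and 4 without WT samples 2 and 3. With the replicate number as a block it was 30. Same-numbered samples deviated together at 0.338, -0.115, -0.153 and 0.340 for numbers 1 to 4. In all, 4 of 8 samples correlated best with their own number, those numbered 1 and 4. The labels give no pairing, so the fit as reported has none, and whether same-numbered samples shared a batch was not tested. Under the block Myoz2 had an adjusted p of 0.280.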

Other observations

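Promoter windows of 7 of the 10 members were matched in the RefSeq table on GRCm38.p6. Both Ldb3 windows hold the same CArG box, at -35 to -26 from the more upstream start. Of the Fhl1 windows, 1 holds another at -102 to -93 and TATAAA on the opposite strand at -156 to -151. Of all windows of this length, 1.47% hold the CArG box and 12.4% hold TATAAA. The Des window holds CAGCTG at -36 to -31, and the Actn2 window holds none of the 5 motifs. Differences of these 4 genes between genotypes lay between -0.07 and 0.01.

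Of the genes nearest to the remaining members over the 8 arrays, Acta1, the skeletal alpha-actin, was the third for Actn3 (r = 0.935). Mrln, a small inhibitor of the calcium pump, was the second for Myoz1 (r = 0.950). Sox6, a repressor of slow fibre genes, was the nearest to Myoz3 (r = 0.950), with a difference between genotypes of 0.03 (limma adjusted p = 0.937). These 3 genes were picked after their values were seen, and the r values are descriptions over few arrays.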
